A study of Rattus norvegicus with 7 samples.

Results

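The sites of 2 DNA-binding proteins, TEAD1 and YY1, were compared in S16, an untreated rat Schwann cell line. All peaks of the TEAD1 list (26404) and all peaks of the YY1 list (38704) were taken, without those on the mitochondrial genome. These 65108 peaks were part of 283804 such peaks in the 6 lists of the series. A peak was called shared when at least 1 bp of it overlapped a peak of the other list, and otherwise TEAD1-only or YY1-only. Both lists came from CUT&RUN, in which an antibody directs a nuclease to the protein so that the bound DNA is released and sequenced, with a TEAD1 antibody from BD Biosciences and a YY1 antibody from Active Motif. The series of 7 samples also gave S16 CUT&RUN lists for the nuclear receptors NR2F2 and RXRG, an S16 ChIP-seq list for acetylated lysine 27 of histone H3 (H3K27ac), and a ChIP-seq list for SREBP1 from wild-type sciatic nerve at postnatal day 15, for which an input sample was made and not used here.

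TEAD1 is a TEA domain protein through which the Hippo pathway co-activators YAP and TAZ, which do not bind DNA themselves, reach their target genes. YY1 is a zinc finger protein found at promoters and enhancers that can activate or repress transcription. Both have been tied to the myelin programme of Schwann cells. H3K27ac marks active promoters and enhancers, and a peak that lay in an H3K27ac peak by at least 1 bp is called acetylated here.

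There was 1 library per target, so no replicate error could be computed, and read depth is unknown because the lists hold positions only. Intervals given below are at 95% and cover counting over peaks of these lists, which are neither replicates nor independent along the genome. No control library for CUT&RUN was among the samples, so background calls common to such libraries cannot be told apart from shared sites. The lists hold no expression values, and the Schwann cell label was therefore not checked against marker genes. TEAD1 peaks had a median width of 302 bp (quartiles 212 and 440 bp) and covered 9.29 Mb. YY1 peaks were wider, with a median of 439 bp (265 and 671 bp), and covered 19.6 Mb. Coordinates are on build rn5 and count from 1.

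Most TEAD1 peaks coincided with YY1, whereas fewer than 1 in 2 YY1 peaks coincided with TEAD1. Of the TEAD1 peaks, 19085 (72.3%, Wilson interval 71.7 to 72.8%) met a YY1 peak, against 30.6% of the pooled NR2F2 and RXRG peaks as the background of the same cells. Of the YY1 peaks, 18808 (48.6%, 48.1 to 49.1%) met a TEAD1 peak, where the background was 17.8%. By list, YY1 was met by 36.9% of NR2F2 and 25.1% of RXRG peaks, and TEAD1 by 24.0% and 12.3%. The 6.63 Mb covered by both lists made up 71.4% of the bases under TEAD1 peaks and 33.8% of those under YY1 peaks. This left 7319 TEAD1-only and 19896 YY1-only peaks. Few peaks sat near the limit of the rule. Only 160 TEAD1 peaks overlapped YY1 by 50 bp or less (median width 219 bp, 73.1% acetylated), and 103 TEAD1-only peaks lay within 50 bp of a YY1 peak (210 bp, 70.9% acetylated).

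Where the lists coincided, they did so nearly always as 1 peak against 1 peak. There were 19180 overlapping pairs, and in 18259 of them (95.2%) neither peak met a further one. The exceptions were wide peaks. The 365 YY1 peaks that held 2 or more TEAD1 peaks had a median width of 1153 bp, and 99.5% of them were acetylated. The 94 TEAD1 peaks that met 2 or more YY1 peaks had a median width of 802 bp.

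The midpoints of the 18259 one-to-one pairs lay close together. The median distance between them was 73 bp (71.5 to 74.5 bp), with quartiles of 29.75 and 138.5 bp. It was within 25 bp in 21.8% of pairs, within 50 bp in 38.3%, within 100 bp in 61.9% and within 200 bp in 87.7%. The offset had no preferred side, as the TEAD1 midpoint was at the higher coordinate in 50.2% of pairs. For given widths there is a largest offset at which the peaks still overlap, the mean of their widths, and the median offset was 15.9% of that limit. It passed 50% of the limit in 7.95% of pairs.

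**Figure D1:**
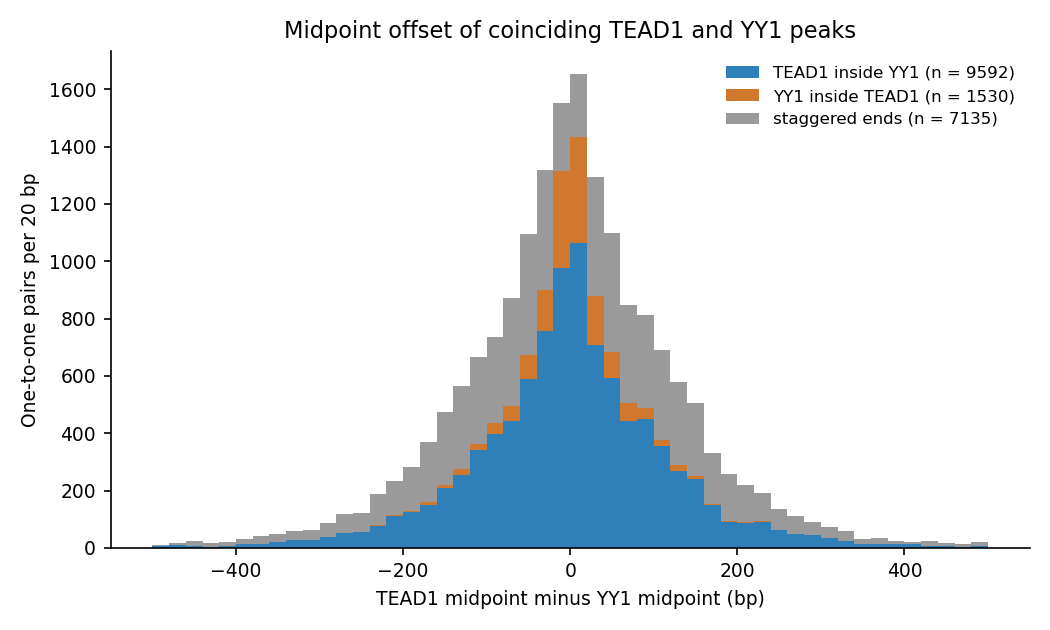
Distance from the YY1 to the TEAD1 midpoint in bp (x axis) against the number of one-to-one pairs per 20 bp (y axis), stacked by whether 1 peak held the other or the ends were staggered. The pairs gather evenly around 0, and the 0.652% of pairs (119) more than 500 bp apart lie outside the axis.

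The offset rose with the width of the YY1 peak, while its median was nearly flat across groups by TEAD1 width. With the pairs in 4 equal groups by YY1 width, from narrow to wide, its median went from 44.5 to 65, 81.5 and 122.5 bp. As a share of the largest possible offset, however, it was 15.8%, 15.8%, 15.5% and 16.7%. Across 4 groups by TEAD1 width the median was 73.5, 73.5, 73.5 and 71.5 bp. The YY1 partners widened over these groups, from a median of 434 to 747 bp. The offset was not compared across TEAD1 widths at like YY1 width, so a dependence on TEAD1 width was not tested. Pairs outside H3K27ac, whose YY1 peaks were narrower, had a median offset of 61.5 bp (57 to 66.5 bp), against 74.5 bp (72.5 to 76 bp) for the acetylated pairs. The largest offset, 1060.5 bp, belonged to a pair on chromosome X (TEAD1 at 119294067 to 119294971, YY1 at 119294909 to 119296250) whose peaks shared only 63 bp.

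YY1 peaks were the wider partner in 78.9% of pairs (14406). The median widths were 352 bp for TEAD1 and 562 bp for YY1, and the YY1 peak was 1.43 times as wide as its TEAD1 partner at the median (quartiles 1.05 and 2.10). Widths within pairs were weakly related (Spearman rho 0.387 over 18259 pairs, which come from 1 library each and share their local chromatin). The ratio shrank as TEAD1 peaks widened. It was 2.14 in the narrowest of the 4 groups of TEAD1 peaks, then 1.60, 1.35 and 1.15. Such a fall arises in part whenever a ratio is sorted by its own denominator. Outside H3K27ac the partners were nearly equal, 292 bp for TEAD1 and 328 bp for YY1, with YY1 the wider in 59.9% of 1925 pairs. Inside H3K27ac it was the wider in 81.1% of 16334.

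**Figure D2:**
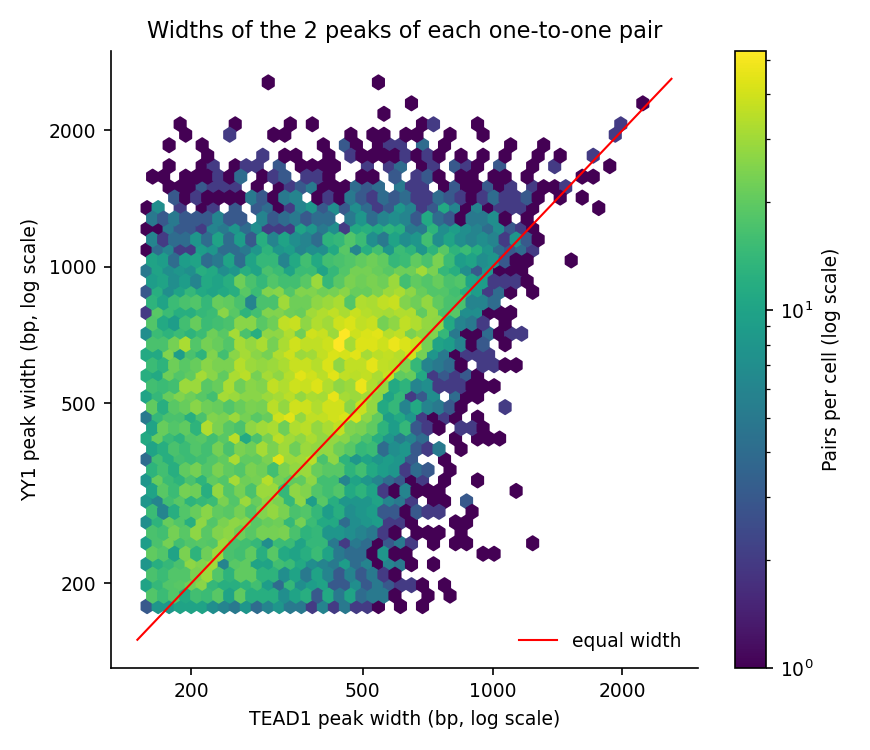
Width of the TEAD1 peak (x axis, bp, log scale) against that of its YY1 partner (y axis, bp, log scale) for the 18259 one-to-one pairs, shaded by the number of pairs on a log scale. Most pairs (78.9%) lie above the red line of equal width, and the excess of YY1 is largest where TEAD1 peaks are narrow.

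The 100 pairs with the widest TEAD1 peaks had peaks of like width in both lists. Their medians were 1159.5 bp for TEAD1 and 1192.5 bp for YY1, a ratio of 1.01. All 100 were acetylated, against 94.99% of the widest of the 4 TEAD1 width groups to which they belong. NR2F2 met 79.0% of the 100 and 57.7% of that group, RXRG 47.0 and 31.0%, and nerve SREBP1 66.0 and 42.0%. The widest was on chromosome 4, where a TEAD1 peak of 2231 bp (209837453 to 209839683) lay inside a YY1 peak of 2248 bp (209837443 to 209839690) with midpoints 1.5 bp apart. The next was on chromosome 12, with 2037 bp for TEAD1 (1488579 to 1490615) inside 2049 bp for YY1 (1488577 to 1490625), and the third on chromosome 4, with 2003 bp (6890400 to 6892402) and 2007 bp (6890395 to 6892401). All 3 met H3K27ac, NR2F2 and RXRG. In these 3 the outlines in the 2 libraries differed by at most 10 bp at either end. The fifth widest, on chromosome 2 (TEAD1 at 270176662 to 270178565, YY1 at 270177078 to 270179000), had its midpoints 425.5 bp apart. Both ends fell within 25 bp of each other in 5.20% of all pairs and 11% of the 100 widest.

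In most pairs 1 peak contained the other. The TEAD1 peak lay wholly inside the YY1 peak in 52.5% (9592, interval 51.8 to 53.3%), the YY1 peak inside the TEAD1 peak in 8.38% (1530), and the ends were staggered in 39.1% (7135). Only 2 pairs had identical ends. Staggered pairs overlapped deeply: at the median 85.2% of the TEAD1 peak was covered, 52 bp of TEAD1 reached past YY1, and 117 bp of YY1 reached past TEAD1. Nesting followed the width of YY1, with TEAD1 inside YY1 in 19.3% of pairs in the narrowest of the 4 groups of YY1 peaks, 44.2% and 67.7% in the next groups and 79.0% in the widest. Acetylated pairs had TEAD1 inside YY1 in 55.7% and YY1 inside TEAD1 in 7.28%. Outside H3K27ac the figures were 26.0% and 17.7%, and most pairs there (56.2%) were staggered.

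At pairs that met another list too, its midpoint could be placed between the others. Where a single NR2F2 peak met both members (8219 pairs), it lay nearer the YY1 midpoint in 56.1%, with median distances of 65.5 bp to YY1 and 80.5 bp to TEAD1. RXRG was likewise nearer YY1 in 57.9% of 4744 pairs (74.5 against 92.75 bp). Nerve SREBP1 peaks, all of 1 width and from another tissue and assay, were farther from both, and nearer TEAD1 in 58.8% of 5622 pairs (166.5 against 190.5 bp). All these distances are larger than, or close to, the 65.25 to 84.5 bp between TEAD1 and YY1 in the same pairs.

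Shared peaks were wider than unshared ones in both lists. TEAD1 peaks had a median of 349 bp when shared (347 to 353 bp) and 214 bp when not (211 to 216 bp). For YY1 the medians were 566 bp (561 to 571 bp) and 326 bp (322 to 330 bp). Sharing accordingly climbed with width. With each list divided into 4 equal groups by width, from narrow to wide, it was, for TEAD1, 45.6%, 67.4%, 82.0% and 94.3%. For YY1 it was 23.1%, 42.3%, 57.4% and 71.9%. A wide peak meets any list more readily, so the shares of each class meeting H3K27ac, NR2F2, RXRG and SREBP1 are given by width class as well. The gaps, the neighbour counts and the sharing by number of factors met were not held to peak width.

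The H3K27ac context separated the unshared peaks of the 2 lists. Shared TEAD1 peaks were acetylated in 90.1% of cases (17197 of 19085), TEAD1-only peaks in 40.8% (2985 of 7319), a difference of 49.3 percentage points (48.1 to 50.5). Shared YY1 peaks were acetylated in 91.4% and YY1-only peaks in 81.7% (16247 of 19896), a difference of 9.78 points (9.11 to 10.5). The background over NR2F2 and RXRG peaks was 55.6% (65.4% for NR2F2 and 47.1% for RXRG). TEAD1-only peaks lay below each of these values and the other classes above. The sets are unlike, since the background includes peaks that meet YY1, which TEAD1-only peaks by definition do not. Width was not matched either. The YY1 list was itself largely acetylated (33445 of 38704 peaks), so that a TEAD1 peak meeting YY1 lay beside a region that was mostly acetylated too.

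At like width the TEAD1 difference remained and the YY1 difference was close to 0. Within the 4 width groups, acetylation of shared and TEAD1-only peaks was 84.2 and 34.9%, 87.9 and 42.9%, 89.9 and 50.3%, and 94.7 and 54.9%. Standardised over 20 width classes, the TEAD1 difference was 43.0 points (41.1 to 44.8). With both lists restricted to peaks wider than their own median, which also changes what counts as shared, it was 26.1 points (24.7 to 27.6). For YY1 the groups gave 70.0 and 64.3%, 85.1 and 85.4%, 94.98 and 96.2%, and 99.3 and 99.7%, so that only in the narrowest group were shared peaks the more acetylated. The standardised YY1 difference was 0.388 points, with an interval that held 0 (-0.313 to 1.09).

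**Figure D3:**
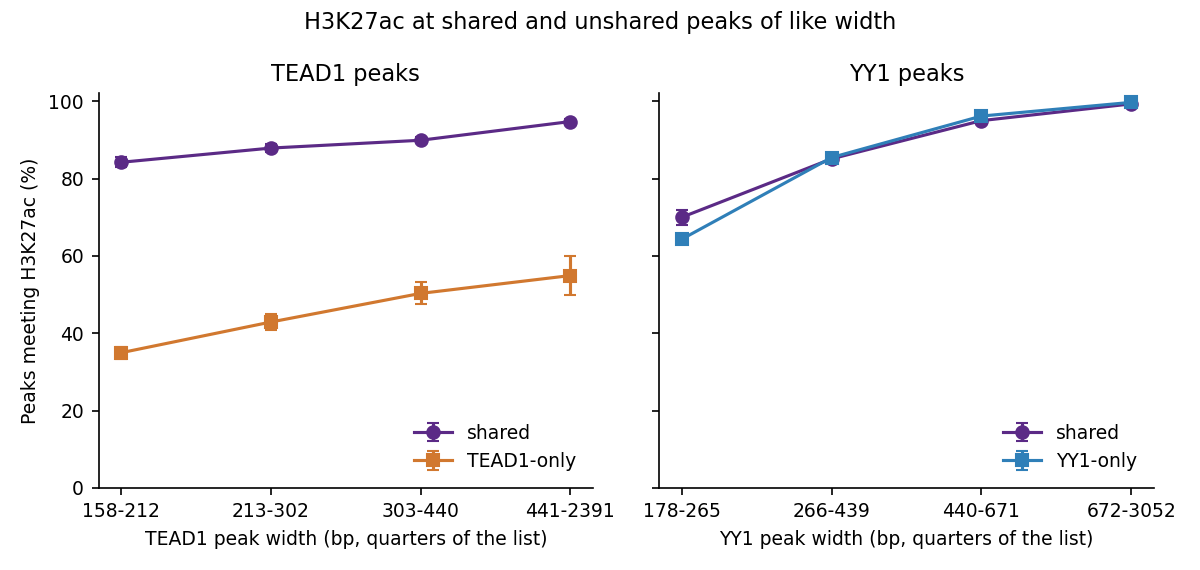
Share of peaks meeting H3K27ac in percent (y axis) for shared and unshared peaks in 4 width groups of each list (x axis, bp), with 95% Wilson intervals as bars. The TEAD1 curves stay apart, 84.2 against 34.9% in the narrowest group and 94.7 against 54.9% in the widest, while the YY1 curves run together above the narrowest group.

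Seen from H3K27ac, TEAD1 coincided with YY1 at 85.2% of its acetylated peaks and at 30.3% of the others. YY1 coincided with TEAD1 at 51.4% and 30.6%. The 1888 shared TEAD1 peaks outside H3K27ac were mostly close to it, with a median gap of 717 bp (581 to 859 bp), against 3270 bp (3061 to 3529 bp) for the 4334 TEAD1-only peaks outside. For YY1 these gaps were 1352.5 bp (1610 shared peaks) and 3859 bp (3649 YY1-only peaks).

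Other factors went along with sharing. NR2F2, an orphan nuclear receptor, met 45.8% of shared and 17.8% of TEAD1-only peaks. RXRG, a retinoid X receptor that pairs with other nuclear receptors, met 27.2 and 7.86%. SREBP1, a regulator of lipid synthesis genes, met 31.4 and 8.16%. Over 20 width classes the TEAD1 differences were 26.7, 19.2 and 20.1 points, with acetylation not held. In H3K27ac, NR2F2 met 48.9% of shared and 29.2% of TEAD1-only peaks, RXRG 29.6 and 14.8%, and SREBP1 33.0 and 10.2%. Outside H3K27ac the values were 17.6 and 9.94%, 5.40 and 3.05%, and 17.0 and 6.78%. Among TEAD1 peaks in H3K27ac, the share with YY1 was 76.6% where none of these 3 lists was met, 86.2% with 1, 92.5% with 2 and 99.8% (1399 of 1402) with all 3. Close to 1 in 2 TEAD1-only peaks, 3571 (48.8%), met no other list at all, H3K27ac included. The same held for 2807 YY1-only peaks (14.1%). Of the shared peaks, 1290 of 19085 for TEAD1 and 1134 of 18808 for YY1 met no list beyond these 2. Peak width was not held in these counts.

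Among YY1 peaks the order of the classes depended on the factor and on width. Shared YY1 peaks met NR2F2 in 48.2% and YY1-only peaks in 29.7%, and the standardised difference was 8.77 points (7.75 to 9.80). Nerve SREBP1 met 36.0 and 23.3%, with a standardised difference of 1.01 points (0.0922 to 1.93). RXRG met 32.1 and 26.7%, but over 20 width classes the order turned, and YY1-only peaks met it more often, by a difference (shared minus YY1-only) of -4.07 points (interval -5.02 to -3.12). The order depended on width. In the widest YY1 group (672 to 3052 bp) RXRG lay at 59.1% of YY1-only peaks (57.2 to 60.9%) and 46.6% of shared peaks (45.4 to 47.7%), and in the third group at 32.1 and 24.6%. In the narrowest group the order was the other way, 15.1% of YY1-only and 21.4% of shared peaks. Nerve SREBP1 also changed order with width: it met 37.0% of YY1-only peaks (35.5 to 38.5%) and 33.9% of shared peaks (32.7 to 35.2%) in the third group, 19.4% of both in the second, and 49.3% of YY1-only and 55.1% of shared peaks in the widest.

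The 5 widest YY1-only peaks all met H3K27ac and 3 met RXRG, against 99.7 and 59.1% of YY1-only peaks in the widest width group. The widest, on chromosome 11 (71933062 to 71935330, 2269 bp) and chromosome 15 (37475238 to 37477504, 2267 bp), met NR2F2 and RXRG too, with TEAD1 8038 and 22340 bp away. The next, on chromosome 12 (25150593 to 25152580, 1988 bp), met neither receptor. Of the 5 widest TEAD1-only peaks, 4 met H3K27ac, 1 of these also NR2F2 and 1 nerve SREBP1. Among the 377 TEAD1-only peaks of the widest width group, the shares meeting these lists were 54.9, 13.0 and 13.8%. The widest TEAD1-only peak, on chromosome 4 (9540019 to 9541292, 1274 bp), met none of the 4 lists. It lay 326 bp from H3K27ac and 15171 bp from YY1.

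Counted over the 99514 H3K27ac peaks, 16488 held both proteins, 14223 YY1 without TEAD1, 2405 TEAD1 without YY1, and 66398 neither. The median widths of these acetylated regions were 1409, 1027, 860 and 523 bp in that order. Of the regions with both, 98.2% (16185) held a pair that overlapped, and 86.2% (14206) held exactly 1 peak of each. The 303 regions with both proteins but no overlapping pair were wide (median 1622 bp). With H3K27ac peaks in 4 equal width groups, the share of TEAD1 regions that held YY1 went from 50.1% in the narrowest to 92.7% in the widest, and that of YY1 regions that held TEAD1 from 34.0 to 65.8%. Both shares count the same regions, and their order follows from there being more YY1 than TEAD1 regions in each group. Over all H3K27ac peaks, YY1 lay in 4.93% of the narrowest and 60.0% of the widest group, and TEAD1 in 3.35 and 42.6%. A rise of the shares with width is therefore not a rise against these base values. An acetylated TEAD1-only peak had YY1 elsewhere in its region in 20.7% of cases (617), and an acetylated YY1-only peak had TEAD1 there in 9.77% (1587).

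Within acetylated regions the classes differed in position. The distance from the region's centre, as a percentage of the distance from centre to edge, had a median of 28.3% for shared YY1 peaks (27.7 to 28.9%), 34.2% for shared TEAD1 peaks (33.6 to 34.9%), 35.3% for YY1-only peaks (34.7 to 36.0%) and 50.1% for TEAD1-only peaks (48.4 to 52.3%). TEAD1-only peaks were thus the most peripheral by this measure. By definition they cannot overlap YY1, so a YY1 peak in the same region limits where they can lie. This applied to 20.7% of them, and to 38.2% in the widest group of H3K27ac peaks. They were wholly inside the region in 66.4% of cases, against 82.1% for shared TEAD1 peaks. In that widest group, TEAD1-only peaks lay 452.75 bp from the centre (47.6%), and shared TEAD1 peaks 323 bp (33.5%). The regions had nearly the same median width there (1911.5 and 1919 bp). In the narrowest group the intervals of these classes overlapped (55.2%, 45.5 to 65.8%, and 53.0%, 42.9 to 63.2%). Within a pair, YY1 was the nearer to the centre in 58.9% of 16334 pairs. Where the TEAD1 peak was at least as wide as the YY1 peak, this was 52.3% of 3082.

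Unshared peaks were seldom near misses. The nearest YY1 peak lay a median of 13903 bp (13169 to 14703 bp) from a TEAD1-only peak, and within 1 kb in 12.1%. From a YY1-only peak to TEAD1 the median was 19608 bp (19181 to 20127 bp), and 7.65% were within 1 kb. Acetylated TEAD1-only peaks were nearer, with 17.8% within 1 kb of YY1, against 8.21% of those outside H3K27ac. For YY1-only peaks the figures were 8.44 and 4.17%.

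**Figure D4:**
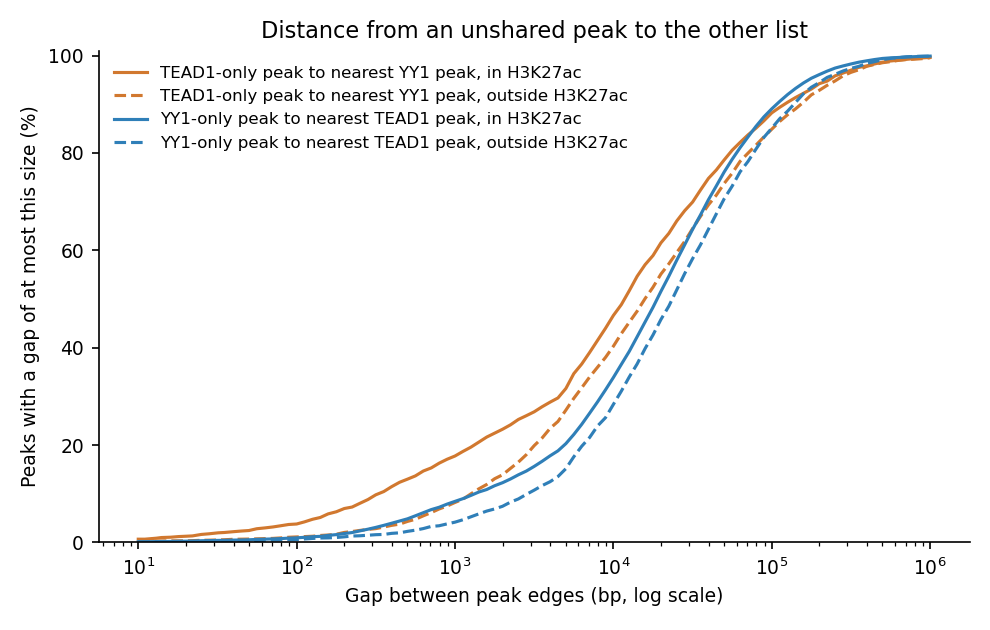
Cumulative share of unshared peaks in percent (y axis) whose gap to the nearest peak of the other list is at most the value on the x axis (bp, log scale), for TEAD1-only and YY1-only peaks in and outside H3K27ac. TEAD1-only peaks, measured to the longer list, reach 50% at a smaller gap than YY1-only peaks, and each curve steepens near 5 kb.

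Spacing along the genome changed near 5 kb in every list. From a TEAD1 peak to the next, 372 gaps were of 3500 to 4500 bp and 697 of 5000 to 6000 bp, a ratio of 1.87 (1.65 to 2.13) where a smooth decline would give at most 1. YY1 had 792 and 1278 such gaps (1.61, 1.48 to 1.77). The ratio was 1.82 for RXRG, 3.07 for NR2F2, 1.46 for H3K27ac and 3.70 for nerve SREBP1, so the step was present in both assays and both sources of cells. It also showed between the lists, with ratios of 1.35 (1.13 to 1.61) for gaps from TEAD1-only peaks to YY1 and 1.43 (1.27 to 1.62) for those from YY1-only peaks to TEAD1. These gap windows were chosen after the step had been seen. How the peaks were called, beyond the name of the caller, is not stated in the labels, and its part in the step was not tested. Counts of neighbours within 5 or 10 kb, below, straddle it.

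TEAD1 peaks that were shared had closer neighbours than TEAD1-only peaks. Another TEAD1 peak lay within 10 kb of 39.4% of shared and 34.6% of TEAD1-only peaks, a difference of 4.85 points (3.55 to 6.13). It was 2.56 points within 5 kb and 8.97 points within 25 kb, and the median gaps were 14915 and 20366 bp. For YY1 the classes were nearly alike, 48.8 and 47.2% (difference 1.54 points, 0.540 to 2.53), and within 5 kb the difference was -0.289 points, with an interval that held 0 (-1.19 to 0.612). Sharing ran in stretches only weakly. The next TEAD1 peak along the chromosome was shared after 74.5% of shared and 66.4% of TEAD1-only peaks, and the next YY1 peak after 52.0% of shared and 45.4% of YY1-only peaks.

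Joined across gaps of up to 10 kb, the peaks of both lists formed 30866 clusters. Of these 15868 held both proteins, 11051 YY1 alone and 3947 TEAD1 alone. Of 262 clusters with at least 10 peaks, 1 held no shared peak. Over all clusters 48.4% held a shared TEAD1 peak, but a cluster of many peaks has more chances to hold one. Of the TEAD1 peaks in the 262 clusters 78.6% were shared, against 72.3% of all TEAD1 peaks. The highest number of shared TEAD1 peaks in a cluster, 18, was reached by 2 clusters, both on chromosome 1. That at 56895992 to 56978805 (82.8 kb) held 23 TEAD1 and 21 YY1 peaks in all. The other, at 187840404 to 187895048 (54.6 kb), held 20 TEAD1 and 18 YY1 peaks and no YY1-only peak. On chromosome 16 (21909984 to 21994178, 84.2 kb) there were 23 TEAD1 and 20 YY1 peaks, 17 TEAD1 peaks being shared. The opposite case, chosen after its values were seen, was a stretch of chromosome 4 (146925044 to 146962400, 37.4 kb) with 9 YY1 peaks, 9 H3K27ac peaks and no TEAD1 peak.

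In windows of 1 Mb the counts of the lists went together, with a Spearman rho of 0.905 for TEAD1 and YY1 over 2699 windows. The rho was 0.880 for TEAD1 and H3K27ac, 0.929 for YY1 and H3K27ac, and 0.620 for TEAD1 and NR2F2. The windows share libraries and gene density, and these values are descriptions. The share of TEAD1 peaks meeting YY1 was 54.5% in windows with 1 to 4 TEAD1 peaks, 66.3% with 5 to 9, 74.2% with 10 to 19, 78.2% with 20 to 38 and 70.9% in the 27 windows with 40 to 79. Those densest windows were the only class with nearly as many TEAD1 as YY1 peaks (1.09 YY1 peaks per TEAD1 peak, against 1.46 to 1.50 in the others), and there 64.4% of YY1 peaks were shared. The classes were cut by the TEAD1 count, the denominator of this ratio, so the choice itself favours a low ratio in the densest class. The densest window, from 56 to 57 Mb of chromosome 1, held 79 TEAD1 and 73 YY1 peaks.

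Chromosome X stood below the autosomes in both directions. TEAD1 peaks met YY1 in 58.3% of 566 cases there (54.2 to 62.3%), against 67.4% (chromosome 2) to 79.5% (chromosome 12) on the 20 autosomes. YY1 peaks met TEAD1 in 36.5% of 882 cases (33.4 to 39.7%), against 40.6% (chromosome 20) to 54.4% (chromosome 2). The ratio of YY1 to TEAD1 peaks on X, 1.56, was within the autosomal range of 1.22 to 1.90. Among acetylated peaks alone, X had 75% of TEAD1 and 37.8% of YY1 peaks shared, below the autosomal ranges of 82.0 to 90.2% and 42.1 to 57.5%. TEAD1 peaks on X were narrower (median 267 bp, autosomes 292 to 313 bp). Within the 3 wider groups of TEAD1 peaks, X was below all 20 autosomes, with 57.5, 68.0 and 85.3% of 153, 125 and 95 peaks. The lowest autosomes had 61.9, 75.1 and 89.7%, and no intervals are given for these small groups. In the narrowest group 1 autosome was lower. For YY1, X was below all autosomes in 1 of the 4 groups, and 1 or 2 autosomes were lower in the others.

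**Figure D5:**
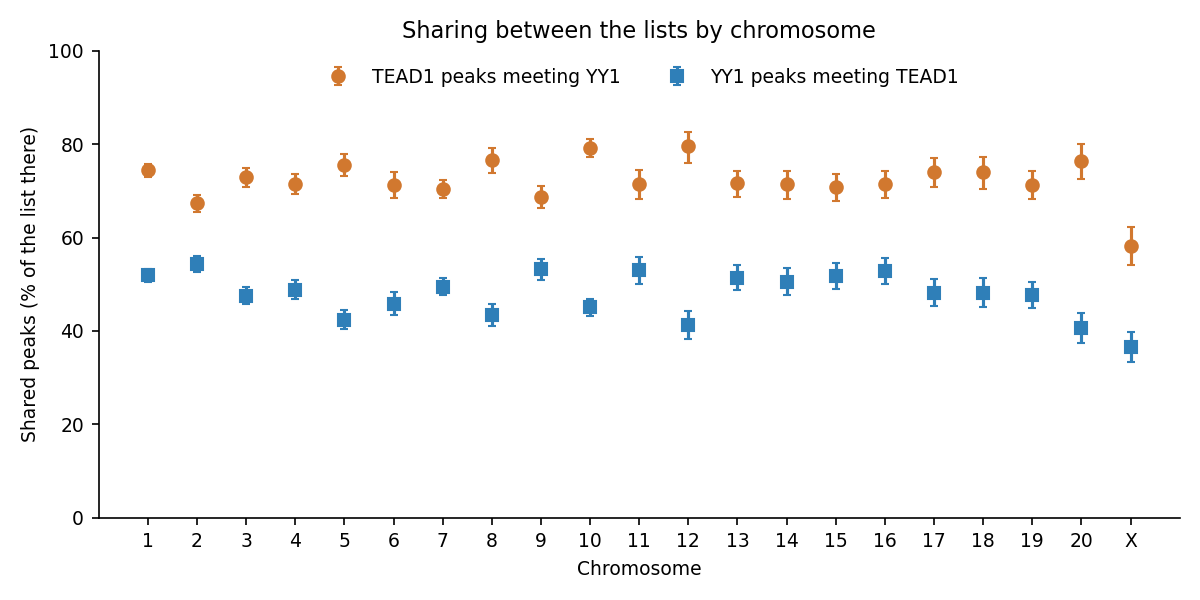
Share of the peaks on each chromosome (x axis) that meet the other list, in percent (y axis), for TEAD1 (circles) and YY1 (squares), with 95% Wilson intervals as bars. X is lowest for both lists, at 58.3 and 36.5%, and the autosomes with high TEAD1 values, such as 12, tend to have low YY1 values.

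Across autosomes the 2 directions opposed each other. Chromosomes with more YY1 peaks per TEAD1 peak had more of their TEAD1 peaks shared (Spearman rho 0.777 over 20 autosomes) and fewer of their YY1 peaks (-0.968). Both shares have the shared peaks as numerator and a list's count as denominator, so these relations are descriptions of the same counts. Chromosome 2 had 1.22 YY1 peaks per TEAD1 peak and chromosome 20 had 1.90. The median offset in pairs varied little, from 65.75 bp (chromosome 19) to 83.25 bp (chromosome 6), and was 67.25 bp on X.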

How the data were processed

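CUT&RUN peaks of TEAD1 and YY1 in the rat Schwann cell line S16 were compared, 1 library each, with the other 4 lists as context. The deposited files give each peak's chromosome, start and end on rn5, with no height or p-value, and a score in the SREBP1 list that was not used. Tools in the submitters' processing notes are Bowtie2, MACS2, bedtools, deepTools and, with its version, bcl2fastq 2.20.0.422, while thresholds, controls and other settings are not stated there.

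Mitochondrial peaks were removed (9 in each list). Neither list had peaks on unplaced sequence. Overlap of at least 1 bp defined sharing. Shares carry Wilson intervals, differences of shares Newcombe intervals, and medians intervals from exact binomial order statistics, at 95%. Width was held by 4 equal width groups of each list and by direct standardisation over 20 width classes, both added after the data were seen. No test was made, since each group had 1 library. Regions were named by rule (widest pairs and unshared peaks, largest offsets, clusters with most shared peaks), and the first few are printed. The members and lists were chosen with earlier results of these data known. No annotation or sequence of rn5 was used, so no gene is named. Functions were tested on simulated data. Python 3.11.15, NumPy 2.4.6, pandas 2.3.3, SciPy 1.17.1 and Matplotlib 3.10.9 were used.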

Additional observations from a re-analysis of the deposited data

Results flagged for a closer look

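Peaks on the mitochondrial genome, which entered no comparison, were present in both lists: 9 TEAD1 peaks (median width 315 bp) and 9 YY1 peaks (335 bp). They drew attention as a signal in data left out of the main measurement. Of each list 6 met the other, with a median midpoint offset of 75.25 bp (73 bp in nuclear pairs). The mitochondrial peaks covered 3831 bp for TEAD1 and 4167 bp for YY1. How much overlap this coverage alone would give was not computed, and so few peaks allow no comparison of offsets. NR2F2 had 13 such peaks, RXRG 16, H3K27ac 2 and nerve SREBP1 0. No control library for CUT&RUN was among the samples, and the source of these peaks was not tested.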

How the results depend on the processing

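Of 60 alternatives to 10 results, 21 moved the value by less than its interval, 34 by more, and 5 turned its sign. The 21 include the restriction to placed chromosomes, made for each of the 10 results. It could change none of them, because neither list had peaks on unplaced sequence. Sharing of TEAD1 with YY1 was 69.9% when 50% of the shorter peak had to overlap, 68.4% by midpoint, 74.5% with YY1 extended by 500 bp and 67.1% among peaks wider than their list's median. Sharing of YY1 with TEAD1 was 47.0, 39.01, 50.8 and 45.5% in that order. The H3K27ac difference of TEAD1 was 46.7, 45.2, 50.9 and 26.1 points in the same order, 44.997, 39.6 and 39.8 points in the width groups 2, 3 and 4, and 43.0 points standardised. That of YY1 was 6.87 points by midpoint, 8.89 with peaks resized to 200 bp, 5.67 in the narrowest width group and 0.388 standardised. It turned to -0.149 among the wider peaks and to -0.341, -1.18 and -0.398 in the other groups. The TEAD1 width difference was 129 bp by midpoint, 131 bp with extension and 129 bp without the widest 1%. That of YY1 was 171, 224 and 229 bp, and 249.5 bp with 50% overlap. The median offset was 78 bp over all overlapping pairs and 70 bp with 50% overlap. TEAD1 lay inside YY1 in 54.2% with 50% overlap and 55.7% in H3K27ac. The neighbour difference was 2.56 points within 5 kb and 8.97 within 25 kb for TEAD1, and -0.289 and 2.56 points for YY1. Beyond the width classes, the cause was not tested. Depth is unknown, so peaks missed in either library cannot be told apart from sites not bound. No paired analysis was possible because TEAD1 and YY1 have 1 library each.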
